A study of Mus musculus with 12 samples.

Results

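Collagens are the main proteins of the extracellular matrix, and 43 genes of the mouse collagen family, of 18810 genes with a count in any library, were measured in cultured stromal cells of the small intestine. The members are all genes whose listed symbol is Col, a type number, the letter a and a chain number, and all 43 had a count. The symbol rule leaves out Col26a1, which the tables carry under the older name Emid2. Cells of the C57BL6/J strain were grown out after removal of the epithelium, were labelled intestinal myofibroblast, and derived either from E14.5 embryos or from adult animals, whose age is not given in the sources used here. They were treated in culture for 6 h with lipopolysaccharide (LPS) of Escherichia coli, a bacterial cell wall component that Toll-like receptor 4 recognises, at a stated 10 µg/µl, or with phosphate-buffered saline (PBS) as vehicle. The 4 groups (embryonic PBS, embryonic LPS, adult PBS and adult LPS) held 3 libraries each. Cultures were independent, 3 for each stage, set up from 3 adult mice or from 6 pooled embryos per culture, and all groups were cells passaged 2 or 3 times and not tissue.

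A collagen is a triple helix of 3 chains, which may be copies of 1 gene product or products of different genes of a type. Fibrillar collagens (types I, II, III, V, XI, XXIV and XXVII) pack into the banded fibres that give tissue its tensile strength, with types V and XI at the fibre core. Network collagens form sheets: type IV is the mesh of basement membranes, and types VIII and X form lattices of short chains. The fibril-associated collagens with interrupted triple helices (FACIT, here types IX, XII, XIV, XVI, XIX, XX and XXII) decorate fibre surfaces. The remaining members, called other here, include the beaded filament collagen VI, the anchoring fibril collagen VII, the basement membrane collagens XV and XVIII, and membrane-spanning collagens. In the intestinal wall, fibroblasts, myofibroblasts and smooth muscle cells are the main makers of the fibrillar chains, and basement membranes underlie the epithelium and surround muscle and vessels.

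Libraries held 18850224 to 32672370 gene counts, so that 3 counts, taken as the smallest detectable level, stood for 0.0896 to 0.144 CPM (counts scaled to library size with the trimmed mean of M values, TMM), which covers counting error only. The label was set beside marker genes other than collagens. Smooth muscle markers (Acta2, Tagln, Myh11, Cnn1 and Des) summed to between 12810 and 27222 CPM in the 12 libraries. Fibroblast markers (Pdgfra, Pdgfrb, Dcn, Lum, Thy1 and Vim) summed to between 4192 and 8860 CPM. Of these, Lum and Thy1 were as low as 42.7 and 25.9 CPM in embryonic LPS replicate 2. Of 5 epithelial markers, Epcam and Vil1 were at most 0.488 CPM, while the keratins Krt8 and Krt18 reached 32.7 and 81.0 CPM. The 5 summed to between 16.5 and 114 CPM. The platelet-derived growth factor receptor Pdgfra, a fibroblast marker, was between 2.24 and 5.83 CPM in embryonic and between 28.5 and 121 CPM in adult libraries. Markers of other cells differed between libraries. The summed level of 5 endothelial markers was 19.4, 1747 and 364 CPM in adult PBS replicates 1, 2 and 3 and 8.30 to 31.0 CPM in embryonic PBS libraries, and the summed level of 10 macrophage markers was 163, 272 and 1754 CPM in the embryonic PBS libraries and 8.90 to 88.1 CPM in the adult ones. LPS and PBS libraries of the same stage and number deviated together from their group means, so each such pair is called a culture here. The pairing is inferred from the labels' numbers and these values.

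Of the 43 members, 34 passed the filter (CPM above 0.5 in every library of at least 1 group): 10 of 11 fibrillar, 9 of 9 network, 7 of 9 FACIT and 8 of 14 other genes. The 9 that did not were Col2a1, Col9a1, Col9a2, Col6a4, Col6a5, Col6a6, Col13a1, Col17a1 and Col25a1. Collagen genes together took 3.20% ± 0.631 (SD, n = 3) of gene counts in embryonic PBS, 3.20% ± 0.808 in embryonic LPS, 3.29% ± 0.507 in adult PBS and 3.21% ± 0.533 in adult LPS libraries. These means lay closer to each other than the 3 libraries of any group did. Embryonic and adult replicate 2 were the lowest of their stage with either treatment, between 2.27% and 2.73%, while the other 8 libraries lay between 3.29% and 3.71%. Fibrillar genes gave the largest part, 2.11% ± 0.460 of gene counts in embryonic and 1.89% ± 0.437 in adult PBS libraries, followed by network genes with 0.892% ± 0.0788 and 1.09% ± 0.0930. FACIT genes gave 0.166% ± 0.0718 and 0.239% ± 0.0334. The other genes gave 0.0272% ± 0.0229 in embryonic and 0.0767% ± 0.00241 in adult PBS libraries, a part that did not overlap between the stages.

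**Figure D1:**
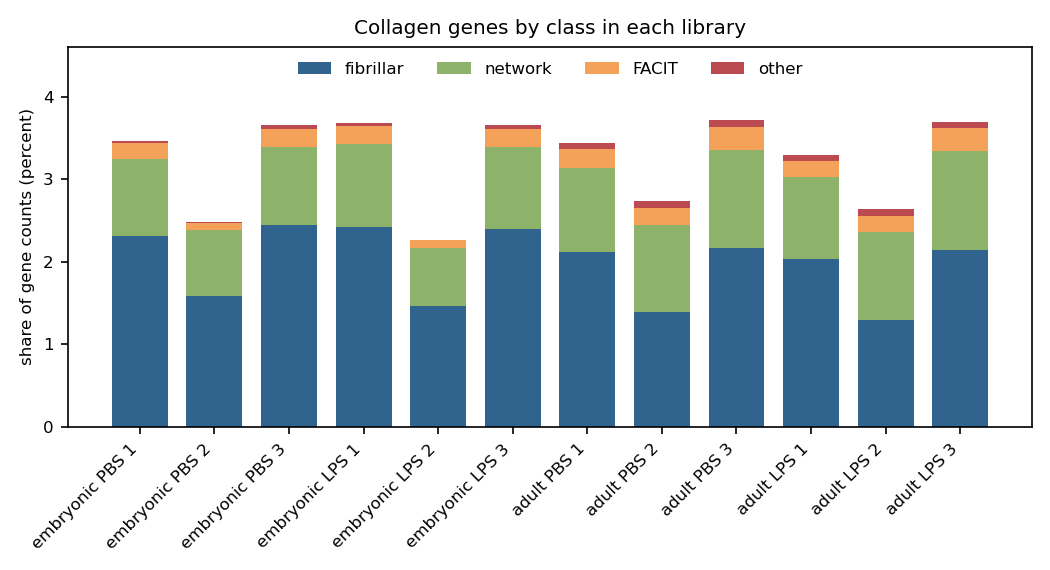
Share of gene counts (percent, vertical axis) taken by the 43 collagen genes in each of the 12 libraries, stacked by class from fibrillar at the base to other at the top. Replicate 2 of each stage is the lowest with PBS and with LPS, and the whole stack of the other 8 libraries ends between 3.29% and 3.71%.

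Per kilobase of annotated exon, the scale on which levels of different genes can be compared, Col1a1 was the highest member, with a mean of 1124 CPM per kb over the 12 libraries. Col4a1 followed with 702, Col5a2 with 572, Col4a2 with 421, Col3a1 with 231 and Col1a2 with 209.5 CPM per kb. The order depends on the length used: with the longest annotated transcript in place of the union of exons, Col1a2 stood at the 4th place instead of the 6th, at 487 CPM per kb, while the same 10 genes made up the first 10 places. Lowest were Col9a1, Col6a6 and Col6a5, each with a mean under 0.0200 CPM, which lies under the detectable level of every library. The order within a class was steep. The 6 abundant fibrillar genes lay between 42.2 and 1124 CPM per kb, and the other 5 (Col2a1, Col5a3, Col24a1, Col27a1 and Col11a2) between 0.336 and 5.14.

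**Figure D2:**
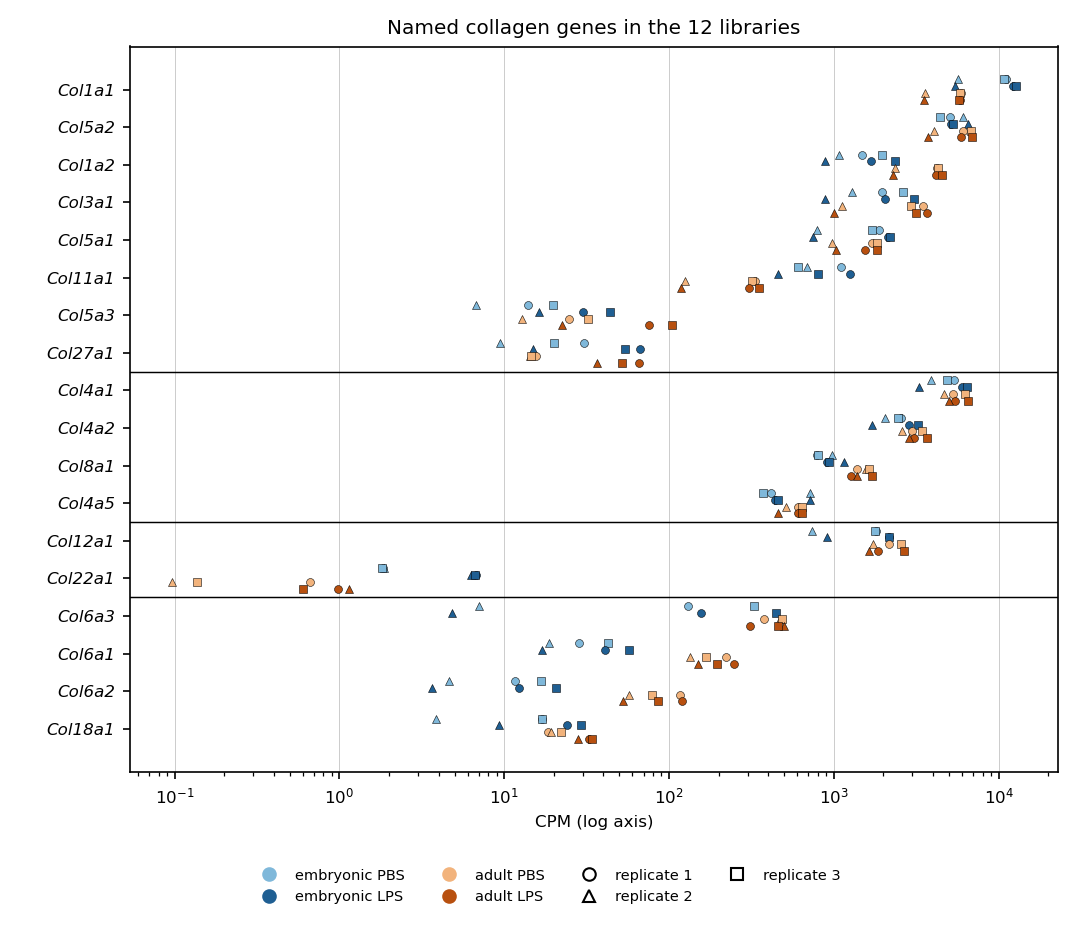
CPM on a log axis (horizontal) of 18 collagen genes in the 12 libraries, ordered by class and level, with colour for the group and symbol shape for the replicate number. Triangles, replicate 2, lie leftmost for most fibrillar genes in both stages, and Col22a1 is the rarest of the genes shown.

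The stage difference, embryonic minus adult in PBS libraries, was called for 4 of the 34 tested members by edgeR's quasi-likelihood test (adjusted p below 0.05, Benjamini-Hochberg over all 13038 tested genes). Col22a1 was higher in embryonic cells, against 1.51% of all tested genes called in that direction, and Col6a1, Col6a2 and Col8a1 were higher in adult cells, against 2.57%. By class, 0 of 10 fibrillar, 1 of 9 network, 1 of 7 FACIT and 2 of 8 other genes were called, and at an unadjusted p below 0.05 these counts were 3, 3, 1 and 3, or 10 of 34 members, where 2584 of all 13038 tested genes were at that level. The median log2 fold change was -0.31 over the members and 0.02 over all tested genes, and by class it was 0.19 for fibrillar, -0.36 for network, 0.75 for FACIT and -1.44 for other genes. Of network genes, 9 of 9 had a negative estimate, and of other genes 7 of 8. The 3 libraries of one stage lay wholly above those of the other for 11 of the 34 members, or 4 above and 7 below in embryonic cells, where 24.3% of all tested genes did so. Between bulk samples, fewer cells of a type and less RNA per cell cannot be told apart.

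Collagen VI, a microfibril that links cells to the surrounding fibres, held the lowest estimates, those of Col6a2 and Col6a1. Its alpha 1 chain gene Col6a1 (chr10:76708792-76726044, minus strand, RefSeq on GRCm38.p6 as for all genes here) stood at 28.5, 18.6 and 42.9 CPM in the embryonic and 222, 133 and 169 CPM in the adult PBS libraries (log2 fold change -2.54, 95% interval -3.53 to -1.55, adjusted p = 0.0153). The alpha 2 chain gene Col6a2 (chr10:76595756-76623630, minus strand) stood at 11.6, 4.63 and 16.7 against 117, 56.8 and 78.3 CPM (log2 fold change -2.94, 95% interval -4.37 to -1.50, adjusted p = 0.0357). The groups did not overlap for either gene, and within each stage replicate 2 was the lowest for both. In LPS libraries the values of Col6a1 were 41, 17 and 56.8 and 247, 151 and 196 CPM (log2 fold change -2.37, 95% interval -3.36 to -1.38, adjusted p = 0.0196) and those of Col6a2 12.2, 3.62 and 20.6 and 120.3, 52.9 and 85.8 CPM (log2 fold change -2.83, 95% interval -4.26 to -1.40, adjusted p = 0.0352), from the same cultures. The alpha 3 chain gene Col6a3, the longest of this type, did not overlap either, at 129.6, 7.07 and 329.9 against 376, 474 and 482 CPM in PBS libraries. Embryonic replicate 2 was 46.7-fold below embryonic replicate 3, and the difference did not pass the test (log2 fold change -1.51, 95% interval -4.35 to 1.33, adjusted p = 0.595). With LPS the embryonic values of Col6a3 were 156, 4.8 and 448 CPM and the adult ones 308, 499 and 458 CPM, which overlapped.

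The stretches before the starts of Col6a1 and Col6a2, which lie 85.2 kb apart on the same strand of chromosome 10, are shown because both genes were lower in embryonic cells. They are from RefSeq's promoters on GRCm38.p6, read 5′ to 3′ on the minus strand, and leave out bases that a GENCODE transcript holds as exon. Capitals mark matches, on either strand, to 4 motifs, none of which overlapped. TATAAA, the TATA box, was present in 12.4% of 32851 promoter windows of 250 bases. The CCAAT box, searched by the letters of its name, was present in 33.8%. The GC box was searched as GGGCGG and was present in 32.7%. The kappa B consensus, the motif that NF-kappa B factors bind, was present in 7.25%.
Col6a1, chr10:76726169-76726294: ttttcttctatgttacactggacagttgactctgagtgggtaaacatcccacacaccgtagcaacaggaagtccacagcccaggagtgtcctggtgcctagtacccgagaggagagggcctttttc
Col6a2, chr10:76623631-76623880: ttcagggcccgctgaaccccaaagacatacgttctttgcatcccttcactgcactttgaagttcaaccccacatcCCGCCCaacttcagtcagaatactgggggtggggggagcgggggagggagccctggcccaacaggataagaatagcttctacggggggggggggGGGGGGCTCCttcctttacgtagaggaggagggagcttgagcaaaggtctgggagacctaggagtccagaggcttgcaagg
The 126 bases of Col6a1, which lie from 250 to 125 bases before its start, held none of the 4 motifs. The bases nearer that start are left out, so this holds for the printed stretch only. The 250 bases of Col6a2, which reach up to its start, held 1 GC box and 1 kappa B match. The stretches differ in length and position, so their matches cannot be compared with each other.

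Col8a1 (chr16:57624256-57754737, minus strand), a short chain of the type VIII lattice of vessel walls and other matrices, was lower in embryonic PBS libraries by a small and even margin. It stood at 795, 979.6 and 799 CPM against 1377, 1577 and 1644 CPM, groups that did not overlap (log2 fold change -0.84, 95% interval -1.19 to -0.49, adjusted p = 0.0202). With LPS it stood at 908, 1156 and 929 against 1272, 1373 and 1694 CPM, which did not overlap either, and the difference missed the threshold (log2 fold change -0.54, 95% interval -0.89 to -0.19, adjusted p = 0.0772). Its partner gene Col8a2 gave a mean of 44.4 ± 15.6 CPM in embryonic and 45.2 ± 22.9 CPM in adult PBS libraries (SD, n = 3).

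Col22a1 (chr15:71795795-72150979, minus strand), a FACIT chain known from tissue junctions such as that of muscle and tendon, went the other way at a low level. Each of the 3 embryonic PBS libraries held 61 counts of it, or 1.84, 1.86 and 1.82 CPM. The adult PBS libraries held 18, 2 and 4 counts, or 0.659, 0.0962 and 0.136 CPM, so that 1 of them was under the detectable level (log2 fold change 2.59, 95% interval 1.35 to 3.83, adjusted p = 0.0334). The embryonic libraries were far closer to each other than the adult ones, where few counts set the values. With LPS the gene stood at 6.72, 6.28 and 6.67 CPM in embryonic and 0.976, 1.14 and 0.605 CPM in adult libraries (log2 fold change 2.84, 95% interval 1.66 to 4.02, adjusted p = 0.0196). In LPS libraries as a whole, the members called between the stages were Col22a1 above and Col6a1 and Col6a2 below, against 3.04% and 2.27% of all tested genes.

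**Figure D3:**
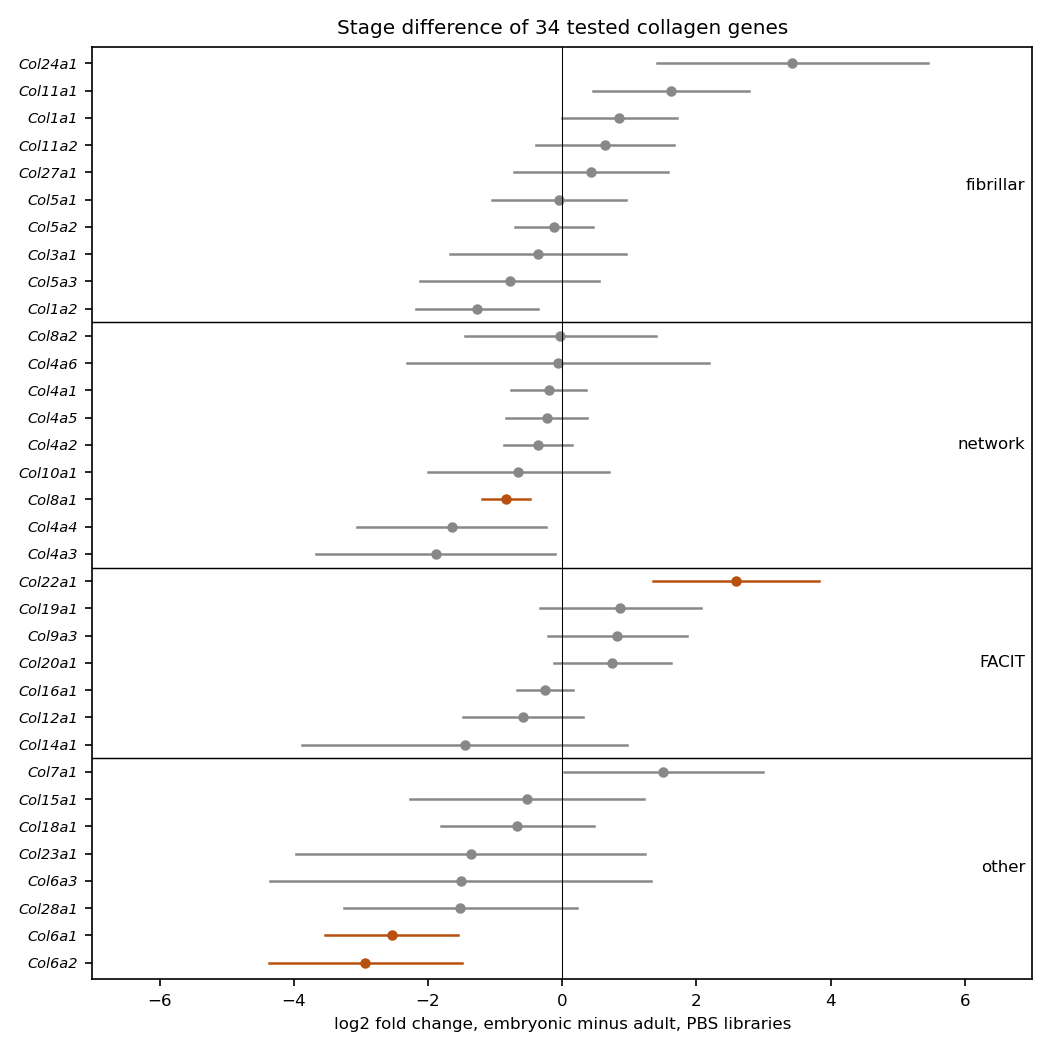
Log2 fold change between embryonic and adult PBS libraries (horizontal axis, positive is higher in embryonic) of the 34 tested collagen genes, grouped by class and sorted within it, with points for the estimate of edgeR and lines for its 95% interval. The 4 coloured genes passed the test, and the intervals of most others are wide and cross 0.

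The chains of collagen I had estimates of opposite sign, and neither passed the test. Col1a1 (chr11:94936224-94953042, plus strand), whose product supplies most chains of that helix, stood at 11104, 5640.0 and 10836 CPM in embryonic and 5942, 3590.3 and 5798 CPM in adult PBS libraries. The ranges overlapped, since embryonic replicate 2 lay below adult replicates 1 and 3 (log2 fold change 0.85, 95% interval -0.01 to 1.70, adjusted p = 0.258). Col1a2 (chr6:4505618-4541543, plus strand), the partner chain, stood at 1476, 1068 and 1964 against 4221, 2365 and 4299.8 CPM, with every embryonic library below every adult one (log2 fold change -1.27, 95% interval -2.18 to -0.37, adjusted p = 0.108). The count ratio of Col1a1 to Col1a2 was 7.52, 5.28 and 5.52 in the embryonic and 1.41, 1.52 and 1.35 in the adult PBS libraries. With LPS the ratios were 7.33, 6.19 and 5.47 and 1.39, 1.56 and 1.28. The 6 embryonic and 6 adult libraries did not overlap, and no test was run on ratios. A count ratio can be compared between libraries, since gene length is the same in all. Corrected for length, the embryonic PBS mean was 11.6 per kb of exon union and 5.51 per kb of the longest transcript. Both values are above 2, the number of these chains to 1 partner in the usual helix. They are ratios of RNA, the helix is of protein, and protein chains were not measured. Whether the adult PBS ratio of RNA is above 2 depends on the length used, as the mean was 2.70 per kb of exon union and 1.29 per kb of the longest transcript.

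The other abundant fibrillar genes did not pass the test. Col3a1, whose product is the homotrimer of soft, pliable tissue, stood at 1965, 1284 and 2632 CPM in embryonic and 3486, 1113 and 2958 CPM in adult PBS libraries (log2 fold change -0.36, 95% interval -1.67 to 0.94, adjusted p = 0.815). Col5a1 stood at 1882, 788 and 1702 against 1695, 979 and 1838 CPM (log2 fold change -0.05, 95% interval -1.05 to 0.96, adjusted p = 0.974). Col5a2, its partner in the fibre core, stood at 5034, 6057 and 4404 against 6043, 4065 and 6771 CPM (log2 fold change -0.12, 95% interval -0.70 to 0.46, adjusted p = 0.869). Replicate 2 was the lowest library for all 3 genes in adult cells and for Col3a1 and Col5a1 in embryonic cells, and the highest for Col5a2 in embryonic cells. Col11a1, a fibre core chain best known from cartilage, was at 1101, 686 and 603 CPM in embryonic and 334, 125 and 318 CPM in adult PBS libraries. These did not overlap, and the difference missed the threshold (log2 fold change 1.62, 95% interval 0.46 to 2.78, adjusted p = 0.109). Col24a1, named after its values were seen, had the largest estimate of all members (log2 fold change 3.43, 95% interval 1.41 to 5.46, adjusted p = 0.0649), at 64.8, 6.18 and 32.9 against 3.55, 2.21 and 3.82 CPM.

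The basement membrane chains did not pass the test either. Col4a1 (chr8:11198423-11312889, minus strand) and Col4a2 (chr8:11312805-11449287, plus strand), which form the common helix of type IV, start 84 bases apart on opposite strands and overlap there. Col4a1 stood at 5334, 3899 and 4832 CPM in embryonic and 5306, 4662 and 6212 CPM in adult PBS libraries, which overlapped (log2 fold change -0.20, 95% interval -0.76 to 0.35, adjusted p = 0.74). Col4a2 stood at 2553, 2048 and 2448 against 2997, 2606 and 3442 CPM, which did not overlap (log2 fold change -0.36, 95% interval -0.87 to 0.15, adjusted p = 0.442). The count ratio of Col4a1 to Col4a2 varied least of the pairs examined, between 1.90 and 2.09 in the embryonic and between 1.77 and 1.80 in the adult PBS libraries. Col4a5, a chain of muscle and kidney basement membranes, stood at 413, 715 and 371 against 607, 513 and 642 CPM (log2 fold change -0.23, 95% interval -0.84 to 0.37, adjusted p = 0.723), with embryonic replicate 2 the highest library of the 6. Of the FACIT genes, Col12a1, the most abundant, stood at 1804, 738 and 1785 against 2159.9, 1734 and 2570.3 CPM (log2 fold change -0.58, 95% interval -1.47 to 0.32, adjusted p = 0.492), and these overlapped.

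The rarer members that no other rule named are given by range. Col14a1 and Col16a1, FACIT chains of skin and tendon fibres, lay between 3.63 and 135 CPM and between 70.1 and 113 CPM in the PBS libraries. Col7a1, the anchoring fibril chain, was at 49.8, 11.9 and 39.5 CPM in embryonic and 7.4, 16.8 and 11.4 CPM in adult PBS libraries (log2 fold change 1.51, 95% interval 0.02 to 2.99, adjusted p = 0.245), overlapping through embryonic replicate 2. Col28a1 was at 4.12, 1.46 and 6.09 against 17.1, 3.85 and 12.6 CPM (log2 fold change -1.52, 95% interval -3.26 to 0.22, adjusted p = 0.321). Neither difference passed the test. The others tested, Col10a1, Col11a2, Col15a1, Col19a1, Col20a1, Col23a1 and Col9a3, lay between 0.289 and 18.3 CPM in PBS libraries, with estimates of the stage difference between -1.37 and 0.86, of which 0 were called. Col9a3 is uncertain, since 44.9% of its counts on either strand lay on the opposite strand. Of the 9 members under the filter, Col25a1 and Col6a4 reached 2.59 and 1.87 CPM in embryonic PBS replicate 1 and stayed at or under 0.144 CPM in adult PBS libraries, and Col13a1, Col17a1, Col9a1, Col9a2, Col6a5 and Col6a6 stayed under 1 CPM in all 12 libraries.

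Leaving out 1 of the 6 PBS libraries left between 0 and 6 members called: 0 without embryonic PBS replicate 1, and 1 (Col6a1) without embryonic PBS replicate 3, adult PBS replicate 2 or adult PBS replicate 3. Of the 3 calls in LPS libraries, 0 remained without adult LPS replicate 1 or 3 and 1 (Col6a1) without adult LPS replicate 2. With both libraries of a culture left out, 0 members were called in PBS libraries without embryonic culture 1 or adult culture 3, 1 without adult culture 2 and 10 without embryonic culture 2, among them Col1a1, Col4a6 and Col7a1. The share of all tested genes called in these fits is not given here. LPS and PBS libraries of a culture enter the test as separate samples, and with their counts summed per culture (3 against 3) 1 member, Col22a1, was called and Col6a1 had an adjusted p of 0.0523.

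Cultures of the same stage differed in collagen level. The highest of the 3 embryonic PBS libraries stood a median 2.28-fold above the lowest over the 34 tested members and 1.47-fold over all tested genes, and the adult libraries 1.85-fold and 1.28-fold. Replicate 2 was the lowest for 24 of 34 members in embryonic and for 24 of 34 in adult PBS libraries, against 36.2% and 38.7% of all tested genes. Among fibrillar genes these counts were 8 and 9 of 10. Other genes varied most between embryonic cultures, with a median of 4.31-fold. Embryonic replicate 2 was lowest for 8 of 8 of them. In that library 4 of 6 fibroblast markers (Dcn, Lum, Thy1 and Pdgfrb) were the lowest of the 3 embryonic PBS libraries, with Dcn and Lum, small proteoglycans that bind collagen fibres, at 619 and 54.6 CPM against 2855 and 431 CPM or more, while Vim was the highest, at 3631 CPM, and Pdgfra lay between the others. The 6 summed to 4483 CPM, against 6871 and 8322, and the mesothelial markers summed to 445 CPM against 108 and 109. In adult PBS replicates 1, 2 and 3 the 6 fibroblast markers summed to 6412, 5027 and 7575 CPM. There the mesothelial markers went the other way, at 974, 323 and 463 CPM, with replicate 2 the lowest. The summed smooth muscle markers were 15141 CPM in adult PBS replicate 2 and 25376 and 25395 CPM in adult PBS replicates 1 and 3. In embryonic PBS replicates 1, 2 and 3 they were 27222, 23370 and 19304 CPM, so that replicate 2 lay between the others. The part of these markers' cells in the collagen values was not tested.

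Some collagen genes, named here after their values were seen, had another order among the cultures. Col4a6, whose gene starts 1.27 kb from that of Col4a5 on the opposite strand, was at 18.4, 145 and 12.3 CPM in the embryonic PBS libraries, highest by far in replicate 2, and at 71.3, 45.7 and 66.6 CPM in the adult ones. The count ratio of Col4a5 to Col4a6 was 22.5, 4.93 and 30.2 in the embryonic and 8.52, 11.2 and 9.65 in the adult PBS libraries. Col2a1, the fibrillar collagen of cartilage, was below 0.5 CPM in the embryonic PBS libraries and at 0.146, 281 and 18 CPM in the adult ones. Of the 5 endothelial markers, Pecam1, Cdh5, Tek and Emcn had the same order among the adult PBS libraries as Col2a1, and Kdr did not, at 15, 13.7 and 16.8 CPM. Pecam1 stood at 0.915, 429.9 and 79 CPM and Cdh5 at 0.879, 247 and 79.4 CPM in the same libraries. Col4a3 and Col4a4, a pair of type IV chains whose genes start 113 bases apart, followed the order of Col2a1, at 10.4, 107 and 51.3 and 7.43, 39.6 and 33.2 CPM. Among the tested members, Col7a1, Col19a1 and Col23a1 had this order in the adult PBS libraries too. Adult PBS replicate 1 was the lowest for 4485 of all 13038 tested genes, and the share with the whole order is not given here. Whether these collagens came from the cells that carried the endothelial transcripts was not tested. In LPS libraries of the same cultures Col2a1 was again high, at 0.26, 253 and 16.2 CPM.

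**Figure D4:**
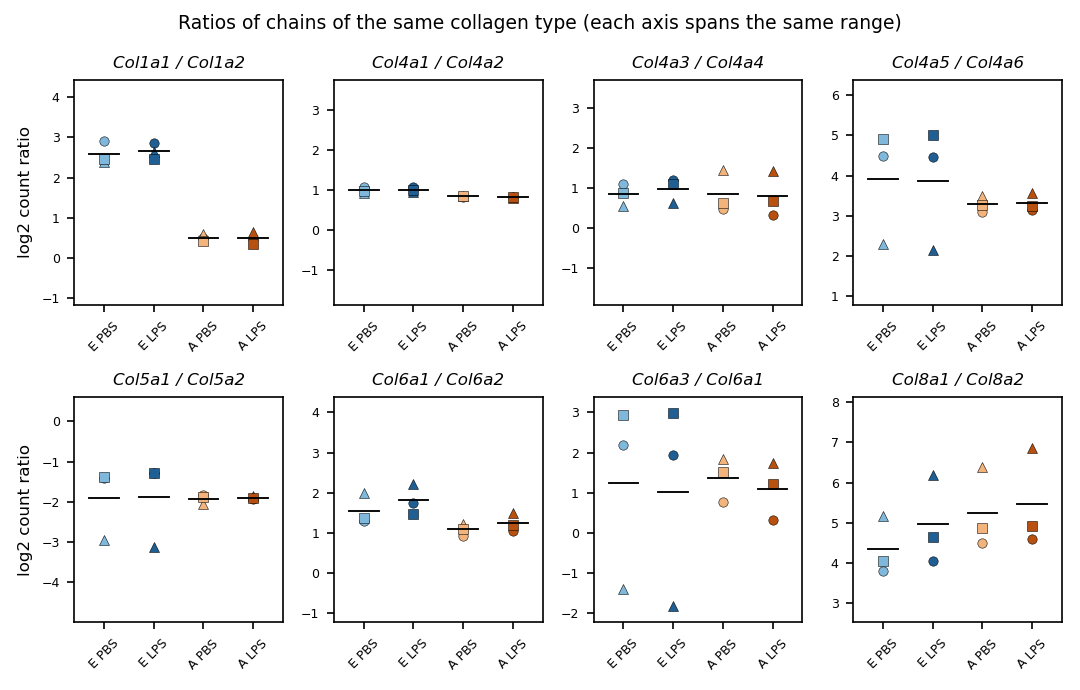
Log2 of the count ratio between chains of a collagen type (vertical axes, each spanning the same range) in the 12 libraries, with E for embryonic and A for adult, symbol shape for the replicate number (circle 1, triangle 2, square 3) and a bar for the group mean. The ratio of Col1a1 to Col1a2 separates the stages widely. That of Col4a1 to Col4a2 varies little, and its embryonic and adult libraries do not overlap either. The ratios of Col4a5 to Col4a6, Col5a1 to Col5a2 and Col6a3 to Col6a1 set embryonic replicate 2 apart from the other embryonic libraries.

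With LPS, of the 34 tested members Col5a3, Col27a1, Col22a1, Col18a1 and Col24a1 were higher in each of the 6 pairs, and the abundant FACIT gene Col12a1 was higher by a small margin in the embryonic pairs. Without regard to pairing, edgeR called 0 of 34 members in embryonic cells, against 2.75% of all tested genes in either direction. In adult cells it called 0, against 0.606%. At an unadjusted p below 0.05 these counts were 2 and 3, where 1407 and 727 of all 13038 tested genes were at that level. DESeq2 called 1 in each, Col22a1 in embryonic and Col27a1 in adult cells. Its share of all tested genes is not given here. With the culture as a block, 5 members rose in embryonic cells (Col5a3, Col27a1, Col22a1, Col18a1 and Col12a1) and 0 fell, against 9.43% and 3.12% of all tested genes. In adult cells 3 rose (Col5a3, Col27a1 and Col18a1) and 0 fell, against 4.69% and 1.51%. A further 5 members in embryonic and 4 in adult cells had an unadjusted p below 0.05 with the block, which makes 10 and 7 of 34 at that level, where 3520 and 2332 of all 13038 tested genes were. The median log2 fold change over the 34 members, with the block, was 0.14 in embryonic and -0.02 in adult cells, where it was 0.00 and -0.01 over all tested genes, and 28 of 34 estimates were positive in embryonic and 14 of 34 in adult cells.

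**Figure D5:**
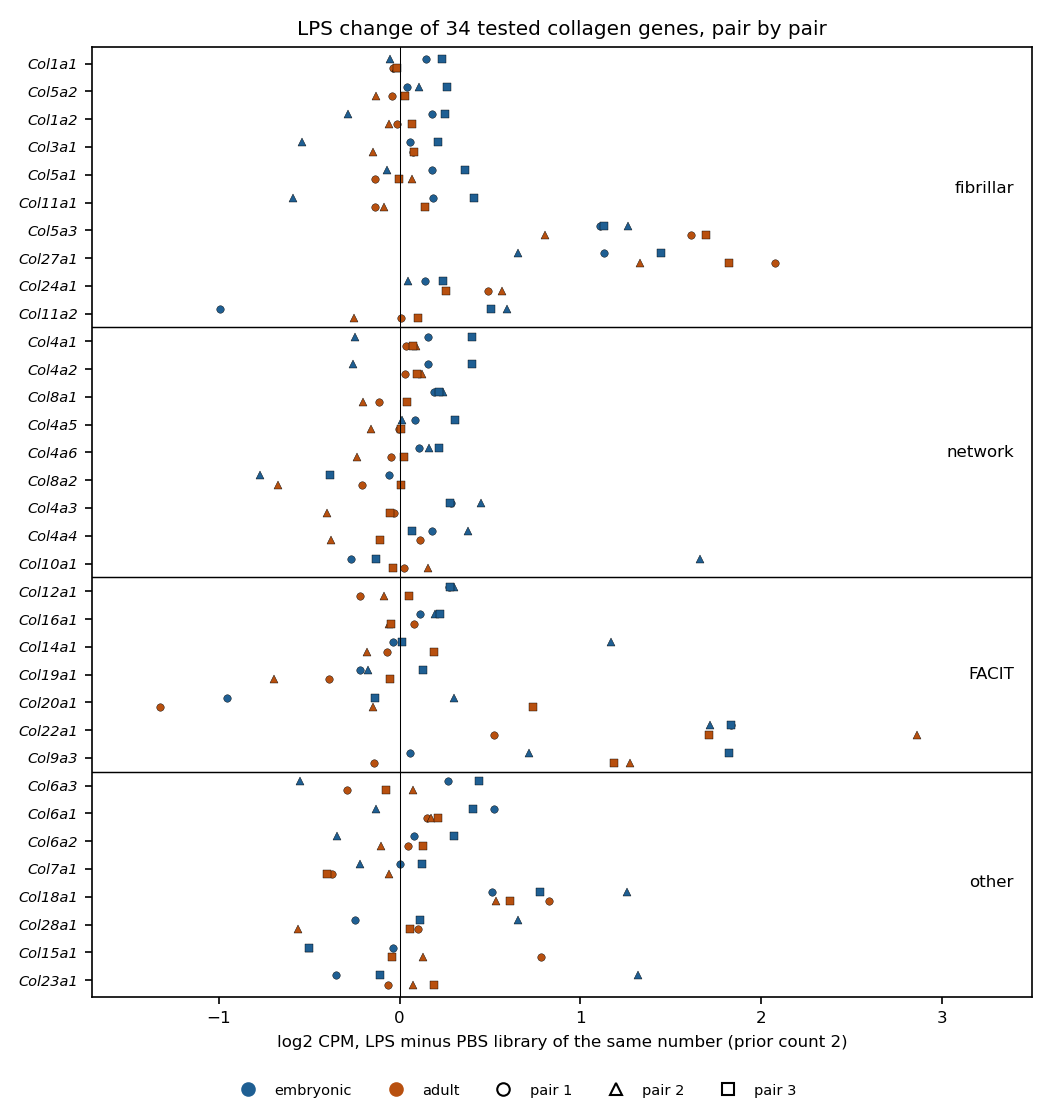
Difference in log2 CPM between the LPS and PBS library of the same number (horizontal axis) for the 34 tested collagen genes, grouped by class and ordered by level, with blue for embryonic and brown for adult pairs and symbol shape for the pair. Col5a3, Col27a1, Col22a1, Col18a1 and Col24a1 lie to the right of 0 in all 6 pairs, and embryonic pair 2 lies to the left of 0 for Col1a1, Col1a2, Col3a1, Col4a1, Col4a2 and Col6a3.

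Col27a1 (chr4:63214009-63334991, plus strand), a fibrillar collagen of cartilage and developing tissues, went from 30.4, 9.48 and 19.9 CPM with PBS to 66.8, 15 and 54.4 CPM with LPS in embryonic cultures 1, 2 and 3. In adult cultures it went from 15.6, 14.4 and 14.6 to 65.8, 36.4 and 51.9 CPM. The adult groups did not overlap, and each embryonic culture was higher with LPS although the groups overlapped. With the block, the log2 fold change was 1.10 (95% interval 0.69 to 1.50, adjusted p = 0.0056) in embryonic and 1.75 (95% interval 1.34 to 2.16, adjusted p = 0.00113) in adult cells. Without the block the adjusted p-values were 0.435 and 0.302.

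Col5a3 (chr9:20770050-20815117, minus strand), the third chain of the fibre core collagen V, went from 14, 6.73 and 19.9 to 30.3, 16.3 and 43.6 CPM in embryonic and from 24.8, 12.7 and 32.2 to 75.9, 22.3 and 105 CPM in adult cultures. Every culture was higher with LPS, and the groups overlapped in both stages. With the block, the log2 fold change was 1.17 (95% interval 0.79 to 1.55, adjusted p = 0.00291) in embryonic and 1.40 (95% interval 1.02 to 1.77, adjusted p = 0.00217) in adult cells, and without it the adjusted p-values were 0.596 and 0.68. The calls of Col27a1 and Col5a3 remained in both stages when any 1 culture was left out, with adjusted p-values between 0.000356 and 0.0362. The main chains of type V did not follow Col5a3: with the block, Col5a1 gave a log2 fold change of 0.16 in embryonic and -0.02 in adult cells (adjusted p = 0.328 and 0.947 by edgeR), and Col5a2 gave 0.14 and -0.05 (adjusted p = 0.316 and 0.84).

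Col18a1 (chr10:77052178-77166530, minus strand), a basement membrane collagen whose end is released as endostatin, went from 16.9, 3.84 and 17.1 to 24, 9.28 and 29.3 CPM in embryonic and from 18.5, 19.3 and 22.2 to 32.8, 28 and 33.9 CPM in adult cultures. The adult groups did not overlap, and every embryonic culture was higher with LPS. With the block, the log2 fold change was 0.83 (95% interval 0.49 to 1.16, adjusted p = 0.00835) in embryonic and 0.66 (95% interval 0.34 to 0.98, adjusted p = 0.0322) in adult cells, and without it 0.808 and 1 were the adjusted p-values. The adult call was lost when adult culture 1, 2 or 3 was left out (adjusted p = 0.239, 0.104 and 0.179 by edgeR with the block).

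Stretches before RefSeq starts of Col27a1, Col5a3 and Col18a1 are shown because these were the members that rose in both stages. They come from the same RefSeq promoters, on the plus strand for Col27a1 and the minus strand for the others, with capitals for the same 4 motifs. The start used for Col27a1 lies inside its gene, and the window before it is in an intron of a longer GENCODE transcript. Col18a1 and Col5a3 are cut where an exon may begin, and no promoter of Col22a1 or Col12a1 was in the table.
Col27a1, chr4:63215162-63215411: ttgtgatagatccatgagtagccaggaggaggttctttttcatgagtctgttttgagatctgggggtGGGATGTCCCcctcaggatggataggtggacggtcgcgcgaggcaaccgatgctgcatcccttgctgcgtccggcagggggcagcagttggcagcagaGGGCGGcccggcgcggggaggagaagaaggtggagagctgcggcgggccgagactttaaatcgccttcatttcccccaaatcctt
Col5a3, chr9:20815118-20815317: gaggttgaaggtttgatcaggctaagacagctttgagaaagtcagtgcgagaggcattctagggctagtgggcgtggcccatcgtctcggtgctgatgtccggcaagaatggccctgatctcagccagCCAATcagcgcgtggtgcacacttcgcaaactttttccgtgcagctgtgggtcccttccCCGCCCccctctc
Col18a1, chr10:77166549-77166780: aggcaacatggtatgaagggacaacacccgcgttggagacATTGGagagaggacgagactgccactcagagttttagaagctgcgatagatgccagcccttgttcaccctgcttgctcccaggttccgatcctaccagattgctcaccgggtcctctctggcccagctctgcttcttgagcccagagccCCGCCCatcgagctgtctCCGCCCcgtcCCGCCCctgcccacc
Each held at least 1 GC box (1, 1 and 3), Col5a3 and Col18a1 each held 1 CCAAT box, and Col27a1 held 1 kappa B match that begins 183 bases before the start. None held a TATA box.

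Col22a1 was higher with LPS in all 6 cultures. The embryonic libraries went from 61 counts each to 192, 182 and 172, from 1.84, 1.86 and 1.82 to 6.72, 6.28 and 6.67 CPM, and the groups did not overlap. With the block, the log2 fold change was 1.83 (95% interval 1.12 to 2.54, adjusted p = 0.00726) in embryonic cells, and in adult cells, where LPS libraries held 30, 37 and 14 counts, it was 1.62 (95% interval 0.55 to 2.69, adjusted p = 0.0971). Without the block the adjusted p-values were 0.107 and 0.535. Without adult culture 1, the gene was among the 3 called in adult cells with the block.

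Col12a1 (chr9:79598987-79721141, minus strand), an abundant FACIT chain of load-bearing tissue, gave the smallest change called. It went from 1804, 738 and 1785 to 2176, 908 and 2166 CPM in the embryonic cultures, and the pair differences were nearly equal, at 0.27, 0.30 and 0.28 on the log2 scale. The log2 fold change with the block was 0.28 (95% interval 0.11 to 0.45, adjusted p = 0.0432) in embryonic and -0.08 (95% interval -0.25 to 0.09, adjusted p = 0.656) in adult cells. Without the block the embryonic adjusted p was 0.999. The embryonic call was lost when embryonic culture 1, 2 or 3 was left out (adjusted p = 0.119, 0.0620 and 0.122 by edgeR with the block).

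Col24a1, named after its values were seen, was also higher with LPS in all 6 cultures and did not pass the test. The pair differences on the log2 scale were 0.14, 0.04 and 0.24 in embryonic and 0.49, 0.57 and 0.26 in adult cultures, and the log2 fold change with the block was 0.15 (adjusted p = 0.353 by edgeR) and 0.44 (adjusted p = 0.0654).

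The abundant fibrillar and type IV chains did not pass the test with LPS. The intervals given are those of the blocked fit, which shares its estimate of a gene's spread between the stages, unless said otherwise. For Col1a1, the libraries with LPS held 12277, 5434 and 12774 CPM in embryonic and 5799, 3537 and 5752 CPM in adult cells, and the 95% interval of the log2 fold change was -0.08 to 0.30 and -0.21 to 0.17. For Col1a2 they held 1674, 878 and 2334 and 4180.3, 2273 and 4511 CPM, with intervals of -0.20 to 0.30 and -0.25 to 0.25. Without the block the intervals were wider, at -0.707 to 0.996 in embryonic and -0.874 to 0.828 in adult cells for Col1a1. For Col1a2 they were -0.775 to 1.01 and -0.880 to 0.901. The embryonic pair differences of Col1a2 were 0.18, -0.28 and 0.25 on the log2 scale. For Col3a1 the values were 2047, 884 and 3047 and 3671, 1004 and 3131 CPM, with intervals of -0.41 to 0.23 and -0.31 to 0.32. Col5a1 stood at 2133, 751 and 2184 and 1545, 1025 and 1835 CPM, and Col5a2 at 5171, 6537 and 5283 and 5880.2, 3712 and 6907 CPM. The core chain Col11a1 stood at 1252, 455 and 801 and 304, 117 and 351 CPM, with intervals of -0.39 to 0.40 and -0.42 to 0.37.

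Of the type IV chains with LPS, Col4a1 stood at 5952, 3291 and 6391 CPM in embryonic and 5444, 4973 and 6544 CPM in adult cells, with 95% intervals of the log2 fold change of -0.17 to 0.38 and -0.20 to 0.34. Col4a2 stood at 2847, 1712 and 3231 and 3062, 2843 and 3680.1 CPM, with intervals of -0.17 to 0.37 and -0.19 to 0.35. In embryonic culture 2 both chains, and 5 of the 6 abundant fibrillar genes, were lower with LPS, while in cultures 1 and 3 all of these were higher. Col4a5 stood at 439, 721 and 459 and 606, 459 and 645 CPM. The lattice chain Col8a1, at 908, 1156 and 929 CPM in embryonic and 1272, 1373 and 1694 CPM in adult cells with LPS, was higher in each embryonic pair, by 0.19, 0.24 and 0.22 on the log2 scale, and did not pass the test (95% interval 0.05 to 0.38, adjusted p = 0.09, and in adult cells -0.25 to 0.07, adjusted p = 0.598, edgeR with the block). For Col6a1 the intervals were 0.01 to 0.55 and -0.08 to 0.44 (adjusted p = 0.178 and 0.487), for Col6a2 -0.23 to 0.33 and -0.22 to 0.28, and for Col6a3 -0.26 to 0.51 and -0.46 to 0.27.

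Macrophage markers moved with LPS as well. The sum of the 10 went from 163 to 131, from 272 to 711 and from 1754 to 1422 CPM in embryonic cultures 1, 2 and 3, and from 88.1 to 98.3, from 8.90 to 8.47 and from 25.3 to 28.8 CPM in adult cultures. Of the 10, Ptprc, Emr1 and Fcgr1 were higher with LPS in all 6 cultures. The others, Csf1r, Cd68, C1qa, C1qb, C1qc, Mrc1 and Tyrobp, were lower with LPS in embryonic cultures 1 and 3 and higher in embryonic culture 2. Csf1r went from 35.7, 46.5 and 285 to 13.1, 73.5 and 124 CPM in embryonic cultures. Ptprc went from 7.53, 9.75 and 59.1 to 19.5, 64.4 and 162 CPM in embryonic and from 2.23, 0.337 and 0.545 to 6.44, 0.553 and 2.37 CPM in adult cultures. The part of macrophages in the collagen changes was not tested.

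No member passed edgeR's interaction test, which compares the LPS change between the stages. Without the block 0 of 34 were called, where 0% of all tested genes were, and 0 by DESeq2. With the block 0 of 34 were called, against 0.844%. At an unadjusted p below 0.05 were 0 members without and 5 with the block. Of all 13038 tested genes, 293 and 1163 were at that level. Among the genes that rose, the estimate was lower in embryonic than in adult cells for Col27a1 (log2 fold change -0.66, 95% interval -1.22 to -0.09, adjusted p = 0.473) and higher for Col12a1 (log2 fold change 0.37, 95% interval 0.13 to 0.61, adjusted p = 0.286). The interval of Col22a1, -1.20 to 1.62 on the log2 scale, leaves differences of over 2-fold in either direction.

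The enzymes, chaperones and receptors that serve collagens were read from a list of 42 genes, of which 40 passed the filter. Without the block, 0 of 40 were higher and 2 lower in embryonic PBS libraries, against 1.51% and 2.57% of all tested genes. Loxl3, a lysyl oxidase that starts the cross-linking of collagen fibres, stood at 12.3, 8.96 and 14.7 CPM in embryonic and 41, 63.8 and 63.1 CPM in adult PBS libraries (log2 fold change -2.22, 95% interval -3.12 to -1.33, adjusted p = 0.0172). Mrc2, the uptake receptor for collagen fragments, stood at 34.9, 24.9 and 22.7 against 77.5, 53.6 and 90 CPM (log2 fold change -1.42, 95% interval -2.13 to -0.72, adjusted p = 0.0366). Neither pair of groups overlapped. Of the genes not called, Pcolce2, an enhancer of propeptide removal, had the lowest estimate and gave -1.94 (adjusted p = 0.163 by edgeR), and the largest positive ones were P3h2 (listed as Leprel1), a prolyl 3-hydroxylase, with 1.51, the propeptide-cleaving Tll1 with 1.07 and Adamts3 with 0.89 (adjusted p = 0.0843, 0.214 and 0.599). Of 10 prolyl hydroxylation genes 0 were called between the stages, and of 4 lysyl hydroxylation and glycosylation genes 0. For so few genes this is near the share of all tested genes called, 1.51% and 2.57%. At an unadjusted p below 0.05 were 1 and 0 of them, where 2584 of all 13038 tested genes were at that level.

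With LPS, 0 of the 40 passed the test without the block in either stage, against 2.75% of all tested genes in embryonic and 0.606% in adult cells. At an unadjusted p below 0.05 were 3 in embryonic and 2 in adult cells, where 1407 and 727 of all 13038 tested genes were. With it, 3 rose in embryonic and 4 in adult cells, where 9.43% and 4.69% of all tested genes rose, and 0 fell in either. Itga2, the alpha 2 integrin chain that binds collagen, went from 13.8, 25.4 and 17.1 to 40.4, 46.1 and 72.9 CPM in embryonic and from 50.5, 15 and 49.7 to 94, 31.9 and 117 CPM in adult cultures (log2 fold change 1.50 and 1.07, adjusted p = 0.00254 and 0.0197, edgeR with the block). Every culture was higher with LPS, and embryonic groups did not overlap. Ddr1, a receptor tyrosine kinase that collagen activates, gave 0.74 and 0.74 (adjusted p = 0.00579 and 0.00987), and Creb3l1, a transcription factor known to drive collagen secretion in bone, gave 0.70 and 0.61 (adjusted p = 0.0116 and 0.0333). The prolyl 4-hydroxylase chain gene P4ha2 went from 111, 95.4 and 97.1 to 176, 146 and 186 CPM in adult cultures, groups that did not overlap (log2 fold change 0.74, 95% interval 0.41 to 1.07, adjusted p = 0.0226), and gave 0.51 in embryonic cells (adjusted p = 0.0556 by edgeR with the block).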

How the data were processed

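Poly(A) RNA was read from 12 libraries of cultured intestinal stroma in 4 groups of 3. The authors trimmed single-end reads, aligned them with STAR to the mouse genome (mm10 in the submitters' processing notes) and kept unique alignments, and they deposited read counts per gene for each library without normalization, as a count for either strand, for the gene's own strand and for the opposite strand. The own-strand count column was used. The opposite strand held 1.14 to 1.98% of gene counts, and more for a few rare collagens (44.9% for Col9a3). Reads not assigned to a gene (17.4 to 19.9%, which includes the ambiguous ones at 0.301 to 0.378%) stayed out of library sizes, and 0 columns belonged to other samples. Genes with CPM above 0.5 in every library of a group were tested (13038 genes) with edgeR 4.0.16 in R 4.3.3, using TMM scaling, quasi-likelihood fits over all 12 libraries without a block, and Benjamini-Hochberg adjustment over all tested genes at 0.05. Standard errors behind the 95% intervals are the absolute log2 fold change divided by the square root of F. Deviations from the group mean of same-numbered LPS and PBS libraries correlated at 0.710 to 0.784 in embryonic and 0.610 to 0.850 in adult cells, so the fit with the culture as a block is printed beside the LPS results. Without the block, p-values measure the spread between the libraries of a group. With it, they measure the spread of the LPS change between cultures, after differences in level between cultures are taken out.

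Named members had a mean of at least 100 CPM, were called between the stages in PBS libraries with a log2 fold change of 1 or more in size, or were called with LPS in either fit, and others are given by range or said to be chosen after their values were seen. Processing genes are named where called with LPS, with the 3 largest stage differences in each direction. Genes under older symbols were matched through RefSeq synonyms. Members and lists were chosen with earlier results of these data known. Alternatives were DESeq2 1.42.0, other scalings, filters, strands, thresholds and subsets of libraries. The fit was also run on simulated data with 200 changed genes. For the stage difference the simulated libraries held no differences in level between cultures. That run therefore cannot show how the stage test does with cultures that differ as these do. Gene coordinates are RefSeq's on GRCm38.p6, and lengths are unions of exons or the longest transcript in GENCODE M21.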

Additional observations from a re-analysis of the deposited data

Results flagged for a closer look

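Col4a3, a type IV chain of specialised basement membranes, was higher with LPS than with PBS in every embryonic pair and lower in every adult pair. The pair differences on the log2 scale were 0.29, 0.45 and 0.28 in embryonic and -0.03, -0.40 and -0.06 in adult cultures, so that the stage means differed by 0.50. The interaction test of edgeR gave a log2 difference of 0.51 with the culture as a block (adjusted p = 0.254) and 0.61 without it (adjusted p = 1), neither of which passed the threshold. In adult PBS libraries the gene followed the order of the summed endothelial markers, as Col7a1, Col19a1 and Col23a1 did too. The part of the endothelial markers' cells in the difference was not tested. With 3 libraries in a group, single outlying libraries were not looked for.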

How the results depend on the processing

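Of 138 recomputed shares, ratios, levels and counts of called members, 95 stayed within their set limits and 43 did not, all of the latter being counts. Of 289 recomputed fold changes of single genes, 182 kept direction and side of the threshold, 55 lost their call, 51 gained one and 1 reversed: Col12a1 with LPS in embryonic cells ranged from -0.0329 (adjusted p = 0.978 by edgeR) without embryonic PBS replicate 2 to 0.59 without embryonic LPS replicate 2. Both of these fits had no block and kept only 1 library of embryonic culture 2, whose pair difference was 0.30 on the log2 scale. For the stage difference, 4 members were called in PBS and 3 in LPS libraries, and DESeq2 called 7 in each. An adjusted p under 0.01 left 0 in each, one treatment fitted alone left 1 in each, and counts summed per culture left 1. Leaving out 1 library gave 0 to 6 in PBS and 0 to 4 in LPS libraries. Leaving out a whole culture gave 0 to 10 in each, with 0 in PBS and 1 in LPS libraries without embryonic culture 1, 10 in each without embryonic culture 2, 1 in PBS libraries without adult culture 2 and 0 in each without adult culture 3. Across the stages, replicates share only a number, with correlations of -0.306 to -0.002, and a block over that number gave 9 calls in PBS and 10 in LPS libraries. Of all 13038 tested genes, that fit called 327 higher and 564 lower in embryonic PBS libraries, and 528 and 531 in embryonic LPS libraries. For DESeq2 and for fits with libraries or cultures left out, the share of all tested genes called is not given here.

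For LPS, where 0 members were called without the block, the block within stages gave 5 in embryonic and 3 in adult cells. DESeq2 gave 1 in each without the block, and 5 and 4 with it. Each stage fitted alone gave 3 in each with the block, and 0 and 1 without it. With the block, counts of either strand gave 5 and 3, an adjusted p under 0.01 gave 4 and 2, and leaving out a culture gave 4 to 5 (4, 5 and 4 without embryonic culture 1, 2 and 3) and 2 to 3 (3, 2 and 2 without adult culture 1, 2 and 3). Without the block, leaving out 1 library gave 0 in embryonic and 0 to 1 in adult cells. The interaction gave 0 under every alternative run. Cultures left out, the threshold, strand and DESeq2 with the block were alternatives chosen after seeing the data. The cause of these changes was not tested. Few counts lie behind Col22a1 in adult PBS libraries (18, 2 and 4), and every comparison has 3 cultures a stage.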
